A study of Mus musculus with 4 samples.

Results

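The genes described here were 10 of the 18419 genes in a single-cell RNA table of mouse testis: Piwil1, Piwil2, Ddx4, Mael, Tdrd1, Tdrd6, Tdrd9, Mov10l1, Asz1 and Gtsf1. They were chosen by name as components of the PIWI-interacting RNA (piRNA) pathway, with earlier results of these data known. The study gave busulfan, an alkylating anti-cancer drug that kills male germ cells, and asked whether alginate oligosaccharides (AOS), short sugar chains made from a seaweed polymer, alter the recovery of spermatogenesis. All mice were males of the outbred ICR stock, at about weaning age when treatment began. A0 mice received the water vehicle alone. A10 mice received AOS at 10 mg/kg body weight. B0 mice received a single dose of busulfan and then the vehicle, and BA10 mice received the same busulfan dose followed by AOS at 10 mg/kg. Testes were digested with a trypsin-like enzyme and captured with droplet chemistry that reads the 3′ end of each transcript and tags it with a unique molecular identifier (UMI). Cells of several mice were pooled for each group and captured as 1 library, which leaves no replicate and no test. The 95% intervals below cover counting error only. Those of log2 ratios combine the limits of both sums and are wider than 95%.

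PIWI proteins bind piRNAs, a class of small RNAs that silence transposons in the germline and, during meiosis, also cleave messenger RNAs. Precursor transcripts are picked up by the helicase Mov10l1, cut and loaded at the surface of mitochondria with the help of scaffold proteins, and the mature complexes gather in cytoplasmic granules (nuage and the chromatoid body) built largely from Tudor-domain proteins. In the mouse testis, PIWI proteins act in fetal germ cells and again in pachytene spermatocytes, where a second and much larger population of piRNAs is made. Loss of most of these genes in mice stops spermatogenesis during meiosis or in round spermatids.

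A0 held 8941 cells, A10 held 9682, B0 held 4659 and BA10 held 3778. B0 was much shallower, with a median of 4214 UMIs per cell against 10948 to 17989 in the others. The lowest cell of each library lay between 2985 UMIs in B0 and 9013 in BA10, and 448 B0 cells reached 9013, here called the common UMI limit. Of all barcodes, 374 occurred in more than 1 library. The cells formed 28 clusters, which were built without the 10 genes and without 17 other piRNA pathway genes, and which were named from marker genes. In the order A0, A10, B0 and BA10, spermatocyte-like cells numbered 3362, 3655, 208 and 2520 and spermatid-like cells 5374, 5860, 5 and 420. In B0, 77.6% of cells were somatic-like, mostly Leydig-like. Transcripts were counted at their 3′ ends, without regard to length. Levels are compared between cells and libraries and not between genes, apart from the share of Piwil1 in Piwil1 plus Piwil2 UMIs.

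Promoter sequence is given first because most of these genes shared a short sequence there. RefSeq promoter windows, which run from 250 bases before to 50 bases after a gene's start, were held for 8 of the 10 genes and not for Piwil2 and Tdrd6. The palindromic E-box CACGTG, the letters bound by several basic helix-loop-helix factors, reads the same on both strands. It occurred in a window of 6 of these 8 genes (75.0%), against 8.09% of the 27025 mouse genes with a window. A gene with several windows was counted once. Among 17 other piRNA pathway genes, 12 had a window and 2 held the E-box (16.7%), namely Fkbp6 and Pld6. The stretches around each E-box are printed on the strand of the gene, with CACGTG in capitals and GRCm38.p6 coordinates (the release behind mm10):
Piwil1, chr5:128736040-128736124, plus strand: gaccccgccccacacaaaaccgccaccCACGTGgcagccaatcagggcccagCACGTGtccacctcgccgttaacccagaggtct
Mael, chr1:166238935-166238994, minus strand: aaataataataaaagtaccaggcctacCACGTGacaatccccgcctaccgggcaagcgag
Tdrd9, chr12:111971367-111971426, plus strand: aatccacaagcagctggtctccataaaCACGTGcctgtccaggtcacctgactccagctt
Tdrd9, chr12:111971437-111971496, plus strand: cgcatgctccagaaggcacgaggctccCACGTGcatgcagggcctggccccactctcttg
Mov10l1, chr15:88982744-88982780, plus strand: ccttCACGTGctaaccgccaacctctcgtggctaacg
Ddx4, chr13:112652322-112652351, minus strand: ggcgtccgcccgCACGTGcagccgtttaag
Tdrd1, chr19:56826186-56826215, plus strand: tggggctgcgcgCACGTGggagtaaactgc

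Piwil1 held a pair of E-boxes, which began 179 and 154 bases before the RefSeq start, and Tdrd9 a pair at 165 and 95 bases. The E-box of Mael began 223 bases before the start, that of Mov10l1 246 bases, that of Ddx4 29 bases and that of Tdrd1 11 bases. Tdrd1 had several windows. Its distance is that of the first, and the window from 56830462 to 56830761 held no E-box. The Piwil1 window, from 128735996 to 128736295, lay inside the annotated gene (128702524 to 128755474) and not at its first base. The Ddx4 stretch lay inside an annotated exon over all of its 30 bases and the Tdrd1 stretch over 7, whereas the others had 0 exonic bases. Asz1 and Gtsf1 had no CACGTG in this window. Other motifs were searched on both strands. The core AACNG, the letters that MYB factors recognise, was found for 7 of 8 genes (87.5%) against 82.4% of all genes. The E2F letters TTCCCGC were found for 1 of 8 genes (5.29% of all genes), and the cAMP-response letters TGACGTCA for 0 of 8 (2.03% of all genes). The windows were also richer in CG dinucleotides, with a median of 19 against 8 over all genes, but the 17 other pathway genes had a median of 25.5 (12 genes with a window). A match is a description of letters and not a measured binding site.

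The 10 genes had their highest levels in different germ cell clusters. With libraries pooled, Mov10l1 and Asz1 were highest in the spermatogonia-like cluster, Piwil1, Piwil2 and Tdrd1 in a pair of spermatocyte-like clusters led by Tex101 and Gml2, Tdrd6 and Ddx4 in other spermatocyte-like clusters, and Gtsf1 in spermatid-like clusters. Mael was as high in a further pachytene-like cluster as in that pair, and Tdrd9 as high in the spermatogonia-like cluster. The lead of Tdrd6 over the unnamed cluster c19, and of Asz1 over a cluster of that pair, was within counting error. The spermatogonia-like cluster c23 held 252 cells, 238 of them from B0. It scored 0.783 for spermatogonia and 0.638 for early spermatocyte markers, and Stra8 was among its leading genes. Stra8 and Rhox13 were also among the leading genes of the unnamed cluster c10, which held 166 A0 and 134 A10 cells. The pair led by Tex101 and Gml2 were cluster c3, with 442 A0 and 444 A10 cells, and cluster c22, with 198 B0 and 432 BA10 cells. Both had Gml2 among their 10 leading genes and are called Gml2-led below. They divided by library, so a cluster can reflect the library as well as the stage. Cluster c3 scored nearly the same for pachytene (0.511) as for early spermatocyte markers (0.508), and c22 scored highest for early spermatocyte markers (0.600). The late spermatocyte-like c0, where Ddx4 was highest, scored 0.721 for late spermatocyte and 0.705 for pachytene markers. The round spermatid-like c9 scored 0.598 for round spermatid and 0.565 for pachytene markers.

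**Figure D1:**
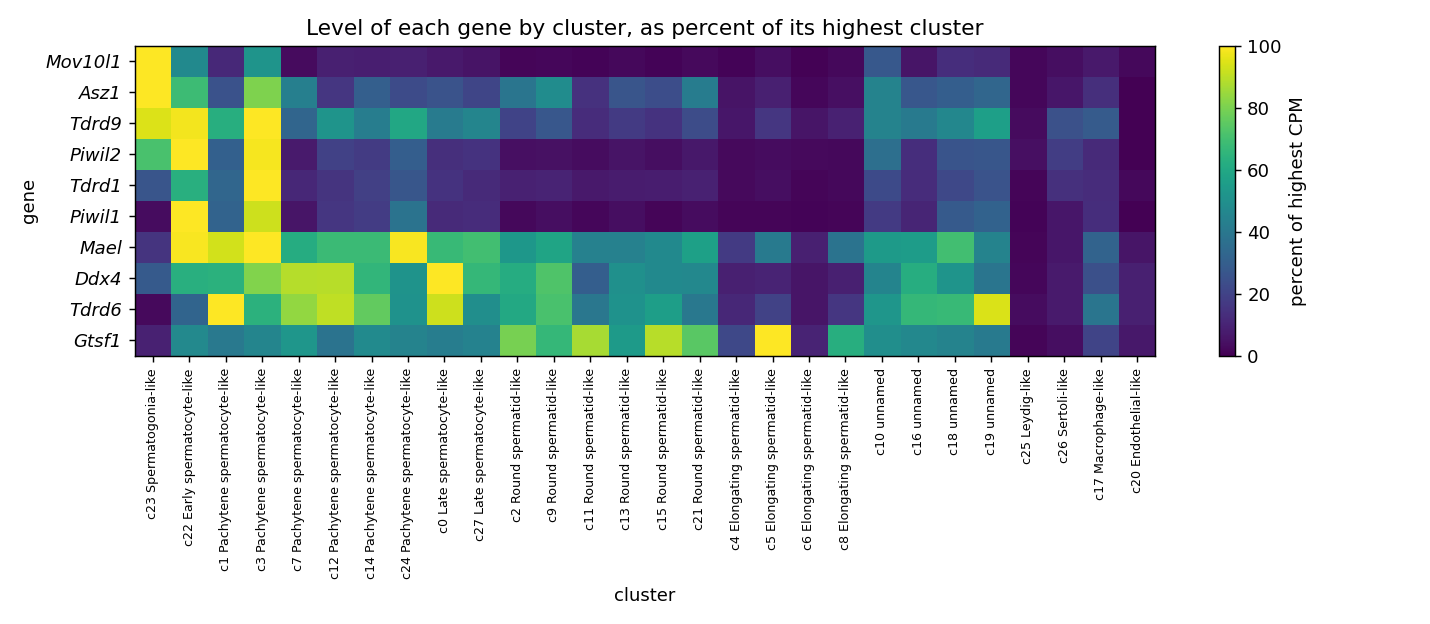
Level of the 10 genes (vertical axis) in the 28 clusters (horizontal axis, ordered by the name each cluster received), as the percent of the gene's own highest cluster, in CPM (UMIs per 1000000). Mov10l1 peaks in the spermatogonia-like cluster c23 at 219 CPM, Piwil1 in the Gml2-led clusters c22 and c3 at 773 and 713 CPM, and Gtsf1 in the elongating spermatid-like cluster c5 at 2162 CPM.

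Among the PIWI proteins, Piwil1 (MIWI, the PIWI protein of pachytene spermatocytes and round spermatids, chromosome 5, 128702524 to 128755474) had the sharpest onset. It stood at 25.9 CPM (UMIs per 1000000 UMIs summed over the cells) in the spermatogonia-like cluster, 773 CPM in c22 and 713 CPM in c3, then 293 CPM in the pachytene-like cluster c24 and 247 CPM in c1. In late spermatocyte-like clusters it was 93.3 CPM (c0) and 99.5 CPM (c27), in round spermatid-like clusters 11.2 to 29.6 CPM and in elongating spermatid-like clusters 6.11 to 10.8 CPM. Piwil2 (MILI, the PIWI protein already present in spermatogonia, chromosome 14, 70372477 to 70429383) started earlier, at 64.8 CPM in spermatogonia-like cells, and reached 90.6 CPM in c22 and 89.5 CPM in c3, a difference within counting error. Nearly all spermatogonia-like cells came from B0, and in the B0 cells of c22 Piwil2 was above this pooled level (value given below). It was 27.2 CPM in c24 and 27.9 CPM in c1. The mix of the PIWI transcripts thus differed between these clusters: Piwil1 made up 28.6% of Piwil1 plus Piwil2 UMIs in spermatogonia-like cells (20.2 to 38.2, from 30 and 75 UMIs), 89.5% in c22 (88.8 to 90.2) and 91.5% in c24 (91.0 to 92.1). The clusters also differed in library, as 661 of the 672 c24 cells were from BA10. Within B0, Piwil1 and Piwil2 had 22 and 68 UMIs in spermatogonia-like cells, against 1475 and 294 in spermatocyte-like cells. With every cell thinned to 2500 UMIs, both transcripts were seen together in 18.9% of c3 cells and 19.4% of c22 cells, but in 0.397% of spermatogonia-like cells.

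Mov10l1 and Asz1, which act before and during piRNA loading, had their highest pooled levels in spermatogonia-like cells, but this order did not hold within B0, the library of nearly all c23 cells. Within B0, Mov10l1 was 231 CPM in c23 (202 to 262) and 299 CPM in c22 (272 to 327), with intervals that do not overlap. Asz1 was 50.5 CPM (37.6 to 66.4) in c23 and 59.7 CPM (48.1 to 73.3) in c22, with intervals that overlap. Pooled over libraries, Mov10l1 (the RNA helicase that selects piRNA precursors, chromosome 15, 88982909 to 89055152) was at 219 CPM in spermatogonia-like cells, 113 CPM in c3, 104 CPM in c22 and 1.45 CPM in the elongating spermatid-like cluster c6. Asz1 (GASZ, a scaffold on the outer mitochondrial membrane, chromosome 6, 18050964 to 18109061) followed the same order at 51.0, 41.1 and 35.0 CPM, and it had further values of 19.8 to 24.8 CPM in the round spermatid-like clusters c2 and c9. Tdrd9 (a Tudor-domain helicase, chromosome 12, 111971559 to 112068854) had pooled levels of 51.8 CPM in c23, 53.8 CPM in c22 and 54.7 CPM in c3, and within B0 53.5 CPM in c23 (40.2 to 69.8) and 79.4 CPM in c22 (65.9 to 94.9). Tdrd1 (a Tudor-domain partner of MILI, chromosome 19, 56826209 to 56870012) was also present from the spermatogonia-like cluster (51.8 CPM) and was highest in c3 (197 CPM) and c22 (124 CPM).

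Gtsf1, Asz1 and the granule proteins Mael, Tdrd6 and Ddx4 had larger shares of their A0 UMIs in spermatid-like cells than the other genes described. These cells were 60.1% of A0 cells and held 57.0% of all its UMIs. They supplied 67.2% of Gtsf1, 48.0% of Asz1, 43.5% of Mael, 40.5% of Tdrd6 and 39.5% of Ddx4 UMIs, so only Gtsf1 lay above the 57.0%. Over all libraries they held 42.0% of all UMIs and supplied 54.4% of Gtsf1 and 36.8% of Asz1. The shares were lower for Tdrd9 (28.2%), Tdrd1 (23.3%), Piwil2 (14.3%), Mov10l1 (13.7%) and Piwil1 (9.46%). Ddx4 (the germ cell helicase VASA, chromosome 13, 112598333 to 112652475) was 128 CPM in spermatogonia-like cells, 449 CPM in the late spermatocyte-like cluster c0, 325 CPM in the round spermatid-like c9 and 25.9 CPM in c6. Mael (Maelstrom, a nuage protein needed for transposon silencing, chromosome 1, 166201201 to 166238747) was between 2132 and 2154 CPM in c22, c24 and c3, and 186 CPM in c6. Tdrd6 (a Tudor-domain scaffold of the chromatoid body, chromosome 17, 43615335 to 43630299) was the gene with the latest onset, with 5.18 CPM in spermatogonia-like cells, 63.0 CPM in c22, 126 CPM in c3, 196 CPM in c1 and 139 CPM in c9. Gtsf1 (a small zinc-finger partner of PIWI proteins, chromosome 15, 103402405 to 103430470) was near 1000 CPM throughout the spermatocyte-like clusters, with 1016 CPM in c22 and 983 CPM in c3. Its highest levels were in spermatid-like clusters, with 1931 CPM in the round spermatid-like c15 and 2162 CPM in c5, and it was 201 CPM in spermatogonia-like cells.

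Across the 28 clusters, the Pearson correlation of log2 levels between pairs of the 10 genes had a median of 0.71 over the 45 pairs. It was highest for Tdrd1 with Tdrd9 (0.92) and lowest for Mov10l1 with Gtsf1 (0.02). These clusters share libraries and differ in depth, and the values are descriptions. The genes whose profile was most like the mean of the 10 were Ccdc73, Ccdc172 and Tmem194 (0.97 each), followed by Nek4 and Hsf2bp (0.96 each). For single members, the closest genes were Dyx1c1 for Piwil1 (0.97), Rad9b for Piwil2 (0.97), Donson for Ddx4 (0.98), Rnf126 for Mael (0.97), Fbn2 for Tdrd1 (0.95), Slc9c1 for Tdrd6 (0.97), Tspan33 for Tdrd9 (0.94), Traip for Mov10l1 (0.95), Tex14 for Asz1 (0.92) and Pold3 for Gtsf1 (0.97).

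Counted per cell, the genes were seen together most often in the Gml2-led clusters. After thinning to 2500 UMIs, a mean of 4.85 of the 10 genes was detected per c3 cell in A0 and 4.68 in A10, and per c22 cell 4.63 in B0 and 4.18 in BA10. All pachytene-like cells, which include c3, had means of 3.61 in A0, 3.52 in A10 and 3.44 in BA10. Round spermatid-like cells had 2.77 in A0 and elongating spermatid-like cells 1.69. Spermatogonia-like cells of B0 had 2.05. Leydig-like cells, which should lack these genes, had 0.175, and 84.8% of them had none.

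Leydig-like cells of B0 gave the level seen in cells that should lack these genes. Mael was at 28.2 CPM there, against 1251 CPM in the early spermatocyte-like cells of the same library, and Piwil1 at 5.48 CPM against 884 CPM. In thinned cells, a Mael UMI was seen in 6.36% of Leydig-like and 91.9% of early spermatocyte-like cells, at median depths of 4044 and 4973 UMIs before thinning. Tdrd6 was closer to this floor, with 1.03% of Leydig-like and 6.57% of early spermatocyte-like cells. The 60 macrophage-like cells of BA10 were different: they carried Mael at 1515 CPM and a mean of 3.03 of the 10 genes per thinned cell, beside pachytene marker genes at 13100 CPM in sum. They are therefore not used as a background.

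Which cells supplied the transcripts differed between libraries. In A0, spermatocyte-like cells made up 37.6% of cells and 40.9% of all UMIs. They supplied between 30.9% (Gtsf1) and 87.5% (Piwil1) of each gene's UMIs. In B0, the spermatocyte-like 4.46% of cells, with 7.22% of all UMIs, supplied 66.1% of Piwil1 but 9.94% of Tdrd6. The spermatogonia-like 5.11% of B0 cells, with 3.99% of its UMIs, supplied 25.8% of Mov10l1. Unnamed clusters, 12.7% of B0 cells but 27.4% of its UMIs, supplied 13.1% of Mov10l1 and 80.0% of Tdrd6. The largest of these, c16, had spermatocyte markers but was led by haemoglobin and Sertoli genes. Somatic-like cells, 77.6% of B0 cells and 61.2% of its UMIs, supplied 6.05% to 12.7% of each gene.

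The first comparison asked what AOS changed without busulfan, and here all 10 genes were nearly level. Piwil1 was 92.1 CPM in A0 (90.6 to 93.7) and 103 CPM in A10 (101 to 105), a log2 ratio of 0.16. Mael was 1266 CPM in A0 and 1207 CPM in A10 (log2 -0.07), and Gtsf1 was 1247 and 1245 CPM. The log2 ratios of A10 over A0 had a median of -0.0058 over the 10 genes, with a range of -0.07 to 0.16. None reached a 2-fold difference, where 0.0446% of all 6724 genes at 10 CPM or more in either library were 2-fold higher and 0.0595% 2-fold lower. In spermatocyte-like cells the median was -0.02 and in spermatid-like cells 0.0090, with Piwil1 at 0.23 (18.1 against 15.3 CPM) and Mael at -0.13 (885 against 966 CPM) in the latter.

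Against the control, busulfan alone came with lower levels of Gtsf1, Mael, Tdrd6 and Ddx4 and a higher level of Mov10l1 when all cells were summed. Gtsf1 was 342 CPM in B0 (log2 B0 over A0 -1.86) and Mael 397 CPM (389 to 405, log2 -1.67). Tdrd6 was 49.3 CPM in B0 and 123 CPM in A0 (log2 -1.31), and Ddx4 was 121 and 259 CPM (log2 -1.10). Mov10l1 went the other way, from 15.1 CPM in A0 to 35.7 CPM in B0 (log2 1.19, 1.04 to 1.34; 0.86 with 10 CPM added and 0.40 with median-of-ratios scaling), and Piwil2 from 12.9 to 20.8 CPM (log2 0.65). In total, 1 gene was 2-fold higher and 4 were 2-fold lower, where 42.8% of all genes were 2-fold higher and 22.7% 2-fold lower, so the higher count lay below that share and the lower count above it. The median over the 10 genes was -0.37, beside 0.51 over all genes. Piwil1 was nearly level (88.1 CPM, log2 -0.06). Leydig markers summed to 7.44 CPM in A0 and 13900 CPM in B0, and elongating spermatid markers to 48000 and 523 CPM, and their part in these ratios was not tested. Ddx4 was 0.17 without somatic-like cells and 0.16 with deep cells alone (the common UMI limit), and Tdrd6 was -0.10 and 0.14. In sums over whole libraries, fewer cells of a type and less RNA per cell cannot be told apart.

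**Figure D2:**
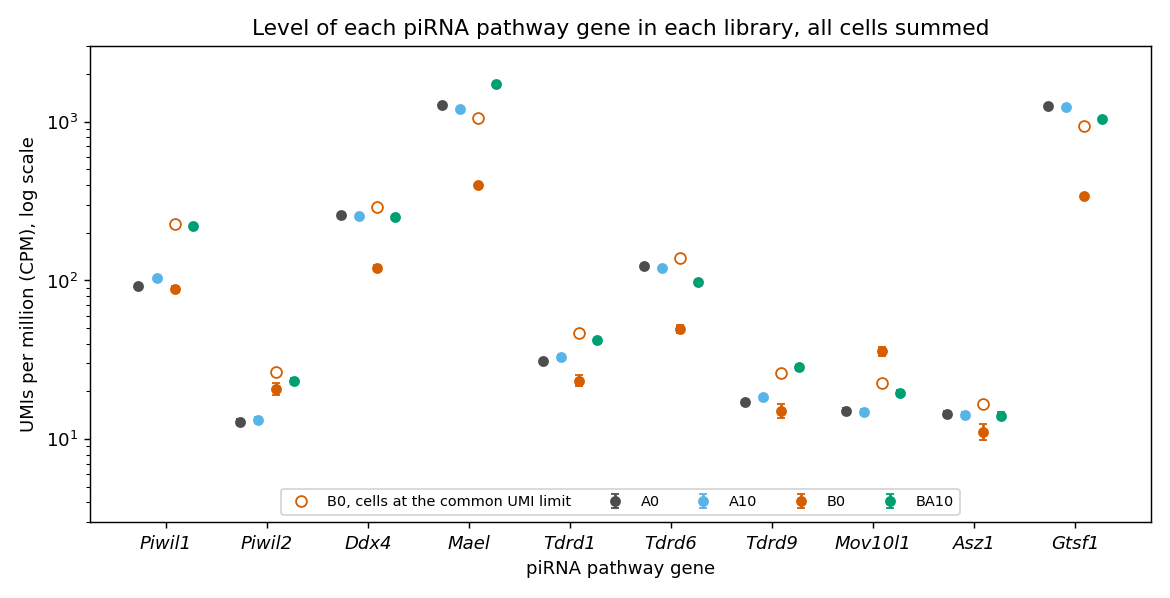
CPM (log axis) of the 10 genes in each library, all cells summed, with exact 95% counting intervals, mostly smaller than the points; open circles show B0 when only its 448 cells at the common UMI limit are summed. Filled B0 points for Gtsf1 (342 CPM) and Mael (397 CPM) lie below those of the other libraries, and the open B0 point of Mael lies at 1061 CPM.

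After busulfan, AOS came with higher levels of most of the genes when all cells were summed. Mael was 397 CPM in B0 and 1724 CPM in BA10 (log2 2.12, 2.08 to 2.15), Gtsf1 342 and 1033 CPM (log2 1.59), Piwil1 88.1 and 221 CPM (log2 1.32) and Ddx4 121 and 251 CPM (log2 1.05). These 4 genes were 2-fold higher and 0 were 2-fold lower, where 18.8% of all genes were 2-fold higher and 39.5% 2-fold lower; with 10 CPM added, 3 were 2-fold higher, without Ddx4. Tdrd6 (log2 0.98), Tdrd9 (0.87), Tdrd1 (0.82), Asz1 (0.32) and Piwil2 (0.15) were higher by less than 2-fold. Mov10l1 was the exception, with 35.7 CPM in B0 and 19.6 CPM in BA10 (log2 -0.83). The median over the 10 genes was 0.92, beside -0.38 over all genes. Summed Leydig marker genes stood at 13900 CPM in B0 and 377 CPM in BA10, and their part in these differences was not tested.

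Both busulfan results turned on which B0 cells were summed. Without the somatic-like cells, at all depths, the median over the 10 genes was 0.81 for B0 over A0 and -0.24 for BA10 over B0, and Mov10l1 was 2.39 and -2.02. Of the 10 genes, 3 were then 2-fold higher and 0 lower for B0 over A0, where 29.5% and 12.0% of all genes were, and 0 higher and 1 lower for BA10 over B0, where 1.70% and 24.0% were. A limit on UMIs changed both the depth and the kind of cell. When only cells at or above the common UMI limit were summed, leaving 448 cells of B0, 7901 of A0 and all of BA10, the median of B0 over A0 was 0.38 and that of BA10 over B0 was -0.17. Of the 448 B0 cells, 370 were unnamed, 53 spermatocyte-like, 24 somatic-like and 0 spermatogonia-like, against 593, 208, 3615 and 238 before the limit, so the parts of depth and of cell type cannot be told apart there. At this limit, 0 of the 10 genes were 2-fold apart between BA10 and B0, where 1.14% of all genes were 2-fold higher and 14.1% 2-fold lower. Mael remained higher in BA10 (1724 against 1061 CPM, log2 0.70, 0.66 to 0.74) and Gtsf1 was 1033 against 940 CPM (log2 0.14). Piwil1 was 221 CPM in BA10 and 228 CPM in B0 (log2 -0.04), and Tdrd6 was lower in BA10, at 97.9 against 139 CPM (log2 -0.50, -0.62 to -0.38). For B0 over A0, Piwil1 was 2-fold higher (228 against 93.7 CPM, log2 1.27) and 0 genes were 2-fold lower, where 16.1% and 11.7% of all genes were, and Piwil2 followed at 0.99. With somatic-like cells left out as well, 2 genes were 2-fold higher and 0 lower for B0 over A0 (14.7% and 11.9% of all genes), and 0 for BA10 over B0 (1.24% and 14.1%). At the limit with all cell types, Mov10l1 was 0.59 for B0 over A0 and -0.21 for BA10 over B0. For B0 over A0, Gtsf1 was -0.43 and Mael -0.28.

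**Figure D3:**
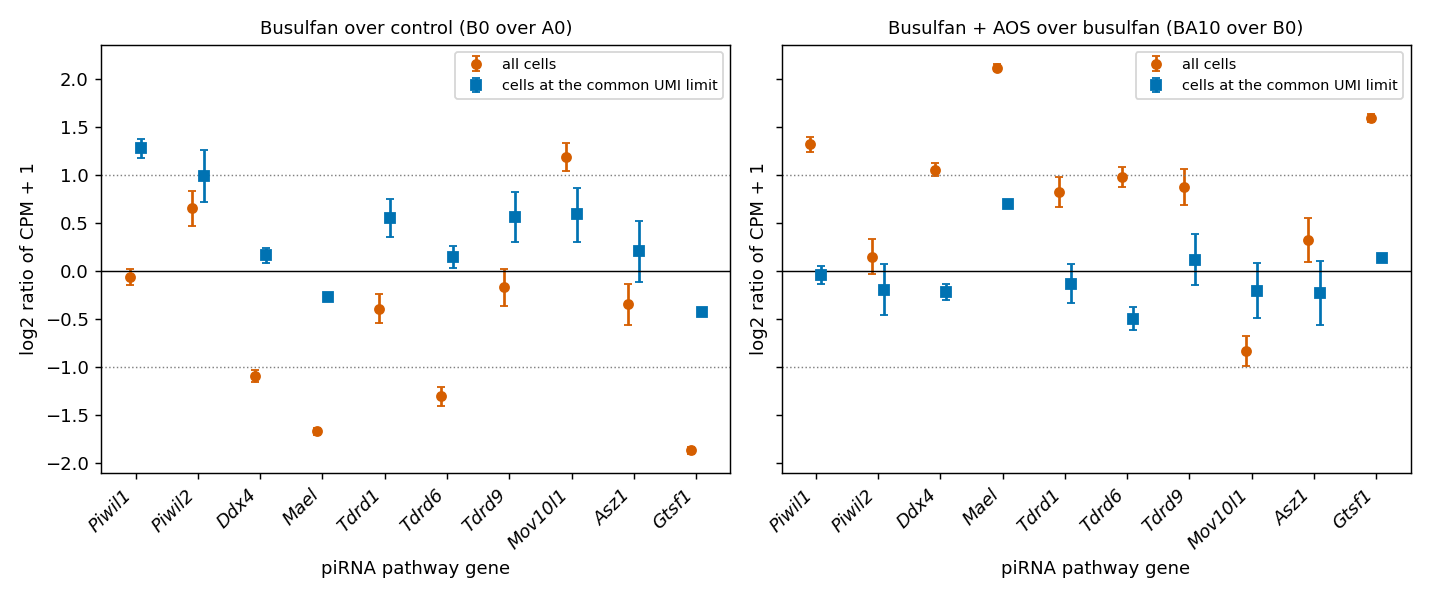
Log2 ratios (1 CPM added) of the 10 genes for busulfan over control and for busulfan plus AOS over busulfan, summed over all cells (circles) or over cells at the common UMI limit (squares). Intervals combine the 95% counting limits of both sums, and dotted lines mark 2-fold. For BA10 over B0, Mael moves from 2.12 to 0.70 and Tdrd6 from 0.98 to -0.50.

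Within spermatocyte-like cells, Mov10l1, Piwil2, Piwil1, Asz1, Tdrd1 and Tdrd9 were higher in B0 than in A0, while Tdrd6, Gtsf1 and Mael were lower and Ddx4 was nearly level. Different clusters held the class. The 208 B0 cells were nearly all of c22 (198 cells), while those of A0 were spread over clusters c0, c1, c3, c7, c12 and c14 and 1418 of the 2520 BA10 cells were in the late spermatocyte-like c27. Mov10l1 was 254 CPM in the B0 cells, 28.7 CPM in A0 and 21.5 CPM in BA10. Piwil2 was 161, 25.3 and 26.6 CPM, and Piwil1 was 807, 197 and 263 CPM, respectively. Of the 10 genes, 6 were 2-fold higher and 1 (Tdrd6) 2-fold lower in B0 than in A0, where 31.9% and 21.4% of all genes were. Between BA10 and B0, 0 were 2-fold higher and 6 were 2-fold lower, where 14.9% and 33.5% of all genes were. The medians were 1.38 for B0 over A0 and -1.39 for BA10 over B0, which became 0.68 and -0.77 at the common UMI limit (53 B0 cells) and 0.049 and -0.25 when clusters were named by marker score alone. Between BA10 and A0, 0 of the 10 were 2-fold apart in spermatocyte-like cells, where 1.90% of all genes were 2-fold higher and 12.7% 2-fold lower. The largest distance was that of Tdrd6, with 174 CPM in A0, 168 CPM in A10 and 93.9 CPM in BA10 (log2 BA10 over A0 -0.88, -0.95 to -0.82). Ddx4 was -0.50 and Piwil1 0.42.

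Clusters that shared some leading genes were compared to bring the stages closer together. These pairs were chosen after the data were seen. In the Gml2-led clusters, Piwil1 was 740 CPM in A0 (443 cells), 695 CPM in A10 (447 cells), 884 CPM in B0 (198 cells) and 745 CPM in BA10 (438 cells). Mael was 2194, 2125, 1251 and 2285 CPM in the same order, so it was low in B0 alone. Piwil1 and Mael of BA10 lay close to A0, with log2 ratios of 0.0097 (-0.07 to 0.09) and 0.06 (0.01 to 0.10).

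Tdrd6, Tdrd1 and Mov10l1 were lower in BA10 than in A0 in the Gml2-led clusters, whereas the Tudor-domain gene Tdrd9 differed by less than counting error (48.6 against 56.9 CPM, log2 -0.22, -0.51 to 0.06). Tdrd6 was 125 CPM in A0, 128 CPM in A10, 57.1 CPM in B0 and 64.0 CPM in BA10, so both busulfan libraries lay near each other and below both others. The log2 ratio of BA10 over A0 was -0.95 (-1.17 to -0.74) and that of B0 over A0 -1.12 (-1.53 to -0.72). Tdrd1 was 204 CPM in A0, 192 CPM in A10, 178 CPM in B0 and 113 CPM in BA10 (log2 BA10 over A0 -0.85, -1.01 to -0.68). Mov10l1 was 120 CPM in A0, 108 CPM in A10, 299 CPM in B0 and 67.0 CPM in BA10, giving log2 1.31 (1.08 to 1.55) for B0 over A0, -0.83 for BA10 over A0 and -2.14 (-2.39 to -1.89) for BA10 over B0. Ddx4 was 261 CPM in BA10 against 371 CPM in A0 (log2 -0.50). The median of the 10 genes for BA10 over A0 was -0.42, beside -0.07 over all genes, with 0 of the 10 past 2-fold where 2.27% of all genes were 2-fold higher and 11.3% 2-fold lower; with cells at the common UMI limit it was -0.37.

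The B0 cells of c22 differed from the others in stage markers and depth. Their summed early spermatocyte markers were 5670 CPM, against 1930 CPM in the BA10 cells of c22 and 2430 CPM in the A0 cells of c3, and their pachytene markers were 6460 CPM against 11500 and 11900 CPM. Their median depth was 4973 UMIs against 18132 and 13257. Leydig markers were 419 CPM in them, 115 CPM in the BA10 cells and 4.73 CPM in the A0 cells. Elongating spermatid markers were 32.2 CPM in them, 157 CPM in the BA10 cells of c22 and 6460 CPM in the A0 cells of c3. Mov10l1, Piwil2, Asz1, Tdrd9 and Piwil1 were higher in these B0 cells than in A0 with intervals above 0 (Piwil2 188 against 94.8 CPM, Asz1 59.7 against 40.9 CPM, Tdrd9 79.4 against 56.9 CPM). The part of these markers and of depth in the ratios of the Gml2-led clusters was not tested, and only 45 of the 198 B0 cells reached the common UMI limit.

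A pair of pachytene-like clusters allowed the same comparison without B0. Pou5f2 was among the 10 leading genes of both, which are called Pou5f2-led, although Speer1 and Cd177 ranked above it in c24. Cluster c1 held 399 A0 and 455 A10 cells and c24 held 661 BA10 cells; B0 had 9. Tdrd6 was again about 2-fold lower after busulfan and AOS, at 199 CPM in A0, 194 CPM in A10 and 99.5 CPM in BA10 (log2 BA10 over A0 -0.99, -1.10 to -0.89), just short of a 2-fold difference. None of the 10 passed it, where 1.51% of all genes were 2-fold higher and 8.36% 2-fold lower. Mov10l1 was -0.41 and Ddx4 -0.32. Piwil1 was 235 CPM in A0, 260 CPM in A10 and 292 CPM in BA10 (log2 0.31, 0.23 to 0.39), and Gtsf1 was 0.17. Tdrd1 was -0.24, while Piwil2 (-0.03), Tdrd9 (-0.06) and Asz1 (-0.07) had intervals that included 0. Pachytene markers summed to 15700 CPM in the A0 cells and 15500 CPM in the BA10 cells, with median depths of 34886 and 42475 UMIs. Elongating spermatid markers summed to 3920 CPM in the A0 cells and 117 CPM in the BA10 cells, and Leydig markers to 2.44 and 99.5 CPM, and their part in these ratios was not tested. A10 over A0 had a median of 0.03 in these clusters and ranged from -0.07 to 0.15.

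**Figure D4:**
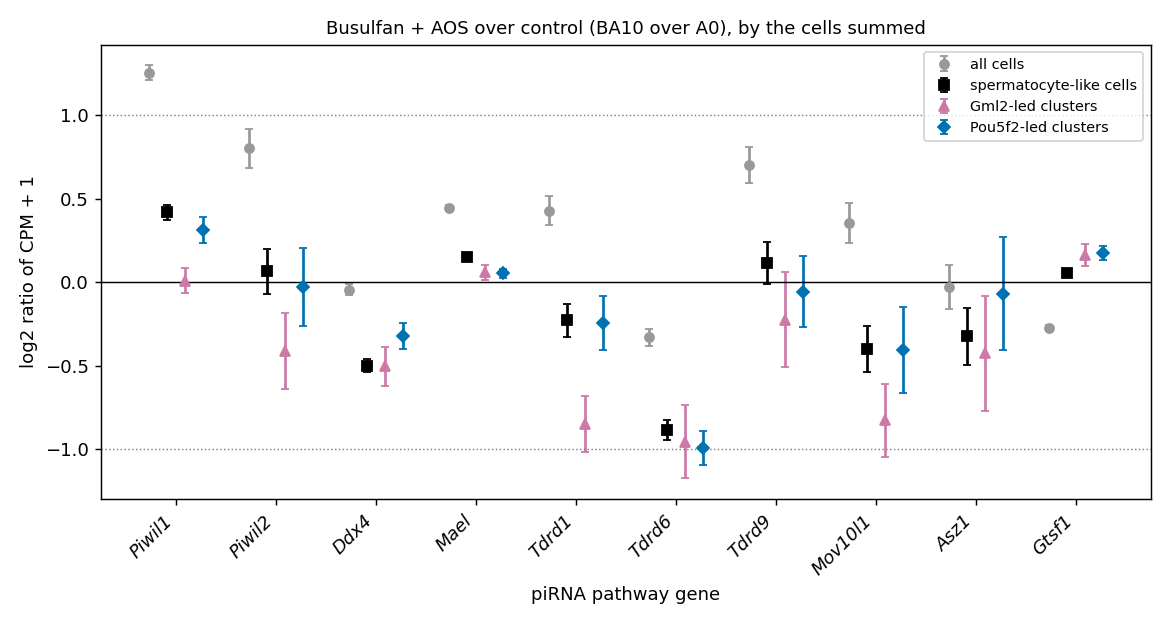
Log2 ratio of busulfan plus AOS over control (1 CPM added) for the 10 genes, summed over all cells, spermatocyte-like cells, Gml2-led clusters and Pou5f2-led clusters. Intervals combine the 95% counting limits of both sums, and dotted lines mark 2-fold. Tdrd6 is lowest in all 3 restricted sets (-0.88, -0.95 and -0.99), while Piwil1 goes from 1.25 over all cells to 0.0097 in the Gml2-led clusters.

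Over all cells, BA10 against A0 showed Piwil1 at 221 against 92.1 CPM (log2 1.25, 1.21 to 1.30), the only gene of the 10 past 2-fold, where 15.2% of all genes were 2-fold higher and 20.2% 2-fold lower. With median-of-ratios scaling Piwil1 was 0.95 and 0 of the 10 were past 2-fold (5.26% of all genes higher and 24.3% lower). Piwil2 was 0.80, Tdrd9 0.70, Mael 0.45 and Tdrd1 0.43. Tdrd6 was -0.33 and Gtsf1 -0.27, and Ddx4 (-0.04) and Asz1 (-0.03) were nearly level. The median was 0.39, beside 0.34 over all genes. Spermatid-like cells were 60.1% of A0 and 11.1% of BA10 and spermatocyte-like cells 37.6% and 66.7%, and elongating spermatid markers summed to 48000 and 1690 CPM; their part in these ratios was not tested. The comparisons with A0 share that library, as those with B0 share B0, so their ratios are not independent.

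The 17 other pathway genes, listed from general knowledge of the pathway, gave a wider spread in the same comparison. Over all cells, of the 13 at 10 CPM or more in either library, 4 were 2-fold higher in BA10 than in A0 (Fkbp6, Pld6, Tcfl5 and Gpat2) and 2 were 2-fold lower (Tex15 and Rnf17), beside 15.2% and 20.2% of all genes. With median-of-ratios scaling, 2 were 2-fold higher and 2 were 2-fold lower, beside 5.26% and 24.3% of all genes. Fkbp6, a co-chaperone of piRNA loading, was 24.1 CPM in A0 and 64.3 CPM in BA10 (log2 1.38), and Pld6, the mitochondrial enzyme that forms piRNA ends, was 26.3 and 66.5 CPM (log2 1.31). Tcfl5, a germ cell transcription factor, was 149 and 315 CPM (log2 1.07). Rnf17, another Tudor-domain granule protein, was 130 CPM in A0, 122 CPM in A10, 45.4 CPM in B0 and 46.9 CPM in BA10 (log2 BA10 over A0 -1.46).

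Rnf17 was also lower in BA10 than in A0 in the Gml2-led and Pou5f2-led clusters, as Tdrd6 was. The A0 and BA10 cells compared also differed in elongating spermatid markers, at 6460 CPM in c3 (A0) and 157 CPM in c22 (BA10). These markers were 3920 CPM in c1 (A0) and 117 CPM in c24 (BA10), and their part was not tested. In A0, spermatid-like cells, with 57.0% of all UMIs, supplied 60.0% of Rnf17, 74.4% of Tex15 and 10.8% of Mybl1 UMIs. In the Gml2-led clusters Rnf17 was 264 CPM in A0, 245 CPM in A10, 211 CPM in B0 and 87.2 CPM in BA10 (log2 BA10 over A0 -1.59, -1.76 to -1.42). In the Pou5f2-led clusters it was 101 CPM in A0, 105 CPM in A10 and 39.7 CPM in BA10 (log2 -1.33). Mybl1 (A-MYB, the transcription factor that switches on pachytene piRNA precursors) was 113 CPM in A0, 93.6 CPM in A10, 132 CPM in B0 and 48.5 CPM in BA10 in the Gml2-led clusters (log2 BA10 over A0 -1.21), and 79.0, 68.7 and 32.0 CPM in A0, A10 and BA10 in the Pou5f2-led clusters (log2 -1.28). Tex15, a nuclear partner of PIWI proteins in fetal silencing, was 8.26 CPM in A0 and 3.37 CPM in BA10 in the Gml2-led clusters (log2 -1.08, -1.86 to -0.30). Of the 13 pathway genes at 10 CPM or more in either library of the Gml2-led clusters, Rnf17 and Mybl1 were 2-fold lower and 0 were 2-fold higher. Of all genes, 11.3% were 2-fold lower and 2.27% 2-fold higher there. The same genes were 2-fold lower and 0 higher among 12 in the Pou5f2-led clusters, beside 8.36% and 1.51% of all genes. Tex15 was under 10 CPM in the Gml2-led clusters. Tdrd12 (0.01) and Tcfl5 (-0.0025) were level in the Gml2-led clusters.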

How the data were processed

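Per the labels and methods, the authors counted reads with Cell Ranger 2.2.0 on mm10 and normalized them in Seurat. The deposited values are the natural log of 1 plus a gene's UMIs per 10000 UMIs of its cell; 100% came back as whole UMIs (tolerance 0.001). Columns of no sample numbered 0, and the table lists 0 mitochondrial genes.

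UMIs were summed over cells, scaled to a total of 1000000 (CPM) and compared as log2 ratios with 1 CPM added, among genes at 10 CPM or more in either library. Count sums have exact Poisson and shares exact binomial intervals (95%). The interval of a ratio sets the lower limit of a sum against the upper limit of the other, so it is wider than 95%. Clusters used 1998 variable genes, 30 principal components, 15 neighbours and Leiden resolution 1 (scanpy 1.11.5, igraph 0.11.9), without alignment of libraries; groups of under 50 cells were not compared. A cluster took the name whose markers scored highest and stayed unnamed when genes of another type led it; stromal and further Leydig genes were added to that check after the data were seen. Scrublet called 8.06%, 8.66%, 0.0859% and 1.27% of cells doublets in A0, A10, B0 and BA10; all were kept, and the low share in B0 was not relied on. Total depth was 150812974, 143714595, 25323535 and 91304225 UMIs. On simulated counts with 200 changed genes, 99.5% or more came within 0.25 of the true log2 ratio.

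Named genes were the 10 members, 17 listed pathway genes and the genes of most similar profile over clusters. The members and lists were chosen with earlier results of these data known. Promoter windows are RefSeq's (GRCm38.p6), gene positions GENCODE M21's. Alternatives were the common UMI limit, a mean over cells, median-of-ratios scaling, 10 CPM added, no filter, other clusterings, removal of doublets and leaving out somatic-like cells. Intervals do not cover differences between mice.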

Additional observations from a re-analysis of the deposited data

Results flagged for a closer look

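Mael differed by treatment context. Over all cells its log2 ratio for AOS over vehicle was -0.07 without busulfan (A10 over A0, 1207 against 1266 CPM) and 2.12 after busulfan (BA10 over B0, 1724 against 397 CPM), a difference of 2.18 between directions that were opposite and whose counting intervals both excluded 0. The ratio without busulfan was nearly level. Ddx4, Tdrd6, Asz1 and Gtsf1 also had opposite signs (Gtsf1 difference 1.60), with intervals for A10 over A0 that included 0. With a single library in every group, the difference was not tested. With cells at the common UMI limit, the ratio after busulfan was 0.70, and without somatic-like cells 0.86.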

How the results depend on the processing

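No paired analysis was possible because each group is 1 library and the labels give no replicate numbers. The median of B0 over A0 reversed from -0.37 to 0.38 at the common UMI limit, with 1 instead of 5 genes past 2-fold, and was -0.89 as a mean over cells and -1.12 with median-of-ratios scaling. The median of BA10 over B0 reversed from 0.92 to -0.17 at the limit, with 0 instead of 4 genes past 2-fold; it was 0.75 with 10 CPM added, 1.62 as a mean over cells (7 genes higher, where 27.6% of all genes were) and 1.40 with median-of-ratios scaling (7 genes higher, where 35.7% were), a scaling that moved the median of all genes from -0.38 to 0.42. That scaling put BA10 over A0 at 0.10 (0 genes). In spermatocyte-like cells, the limit gave 0.68 for B0 over A0 and -0.77 for BA10 over B0, and naming clusters by score alone, added after the data were seen, gave 0.049 and -0.25, as it adds unnamed clusters such as c16 to the class; BA10 over A0 was -0.21 with 1000 variable genes. Single genes reversed at the limit in B0 over A0 were Ddx4 (0.16), Tdrd1 (0.55), Tdrd6 (0.14) and Asz1 (0.21), and in BA10 over B0 Piwil1 (-0.045), Ddx4 (-0.22), Tdrd1 (-0.13), Tdrd6 (-0.50) and Asz1 (-0.23). These lists hold the genes whose counting interval over all cells excluded 0; of the others, Piwil1 and Tdrd9 changed sign in B0 over A0 (1.27 and 0.56) and Piwil2 in BA10 over B0 (-0.20). Leaving out somatic-like cells, added after the data were seen, also reversed both medians, to 0.81 for B0 over A0 (3 genes past 2-fold) and -0.24 for BA10 over B0 (1 gene). Reversed there were Ddx4 (0.17), Tdrd1 (0.76) and Asz1 (0.86) in B0 over A0, and Ddx4 (-0.20), Tdrd1 (-0.33), Tdrd6 (-0.23), Tdrd9 (-0.25) and Asz1 (-0.88) in BA10 over B0. With that and the limit together, the medians were 0.40 (2 genes) and -0.16 (0 genes), with Ddx4 (0.18), Tdrd1 (0.55), Tdrd6 (0.13) and Asz1 (0.25) reversed in B0 over A0, and Piwil1 (-0.031), Ddx4 (-0.22), Tdrd1 (-0.12), Tdrd6 (-0.49) and Asz1 (-0.27) in BA10 over B0. Piwil2 in B0 over A0 was -0.12 with median-of-ratios scaling. As a mean over cells, Tdrd1 in A10 over A0 was -0.014 and Ddx4 in BA10 over A0 was 0.00097. Other resolutions and keeping pathway genes in the clustering left the medians in spermatocyte-like and spermatid-like cells within their counting intervals. Only 2 of the listed genes were among the 2000 variable genes, so keeping them could change little. Removal of called doublets did so for these and for the medians over all cells. Removing doublets or the filter on low values changed no count over all cells. At the limit, Gml2-led clusters held 45 B0 cells, under the minimum of 50, and were not compared. The limit changed depth and cell types together, and the causes were not tested. With 1 library per group, spread between mice is unknown.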

Other observations

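Piwil4 (MIWI2, the nuclear PIWI protein known from fetal germ cells) was seen almost only in B0. It had 0 UMIs in A0 and in A10, which allows up to 0.0199 and 0.0209 CPM (3 counts per library). B0 held 68 UMIs (2.69 CPM) and BA10 held 5. Its highest cluster was the spermatogonia-like c23, with 9.50 CPM (4.74 to 17.0), followed by the Leydig-like c25 with 4.03 CPM (3.01 to 5.28), and these intervals overlap. Of the 68 B0 UMIs, 56 (82.4%) came from somatic-like cells, which were 77.6% of B0 cells and held 61.2% of all its UMIs. Spermatogonia-like cells, with 3.99% of all its UMIs, gave 10 (14.7%).

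Several other pathway genes had the spermatogonia-like cluster as their highest. Fkbp6 was at 524 CPM there, Tex15 at 256 CPM, Pnldc1 (the exonuclease that trims piRNA ends) at 33.7 CPM and Btbd18 at 13.0 CPM. The Gml2-led clusters were highest for Tdrd12, Pld6, Gpat2 and Tdrkh in c22 (344, 128, 66.3 and 55.9 CPM) and for Rnf17, Tdrd5 and Mybl1 in c3 (253, 133 and 103 CPM). For Tdrd12, Gpat2 and Tdrkh, the lead of c22 over c3 was within counting error. Tdrd7, a chromatoid body protein, was highest in the round spermatid-like c9 (235 CPM), within counting error of the pachytene-like c7 (231 CPM). Tex15 had further high values of 110 and 104 CPM in the round spermatid-like clusters c2 and c9.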
